A study of Mus musculus with 16 samples.

Results

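Cd5 (Entrez Gene 12507) was followed across 16 arrays of azacytidine-treated mouse fibroblasts, as the 1 gene read out by 1 of 20355 probes and 1 of the 12420 features compared. It was picked with its values known, for a higher level at both doses in Erbb2-transfected cells and not in untransfected cells, so its values in the 3 groups, and the differences between those groups, are given as a description and without a test. NIH3T3 is an established line of mouse embryonic fibroblasts. The groups were NIH3T3 cells transfected with Erbb2, a receptor tyrosine kinase oncogene, treated with 10 µM (8 arrays) or 5 µM azacytidine (4 arrays), and NIH3T3 cells without that transfection treated with 10 µM (4 arrays). On each array, treated cells were compared with their own untreated line, so both channels of an Erbb2 array come from cells that carry the transgene. The sources used here do not give the vector and promoter of the transgene, the number of clones, the length of treatment or whether arrays came from separate cultures, so p-values measure only the spread between these arrays, which may be technical.

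Cd5 is a membrane glycoprotein of the scavenger receptor cysteine-rich family. It is carried by T cells and by a subset of B cells, where its cytoplasmic tail dampens signalling from the antigen receptor, and fibroblasts are not a cell type known for it. Azacytidine, an analogue of cytidine, binds DNA methyltransferases irreversibly once it is part of the DNA, which lowers the methylation of CpG dinucleotides as cells divide. DNA methylation was not measured in these samples.

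The Cd5 gene lies on the minus strand of chromosome 19. Its promoter is shown because CpG dinucleotides are the sites whose methylation azacytidine lowers. The RefSeq sequence at chr19:10738925-10739224, minus strand, runs from 250 bases before to 50 bases after the start, 5′ to 3′, with CpG dinucleotides in capitals.
Cd5: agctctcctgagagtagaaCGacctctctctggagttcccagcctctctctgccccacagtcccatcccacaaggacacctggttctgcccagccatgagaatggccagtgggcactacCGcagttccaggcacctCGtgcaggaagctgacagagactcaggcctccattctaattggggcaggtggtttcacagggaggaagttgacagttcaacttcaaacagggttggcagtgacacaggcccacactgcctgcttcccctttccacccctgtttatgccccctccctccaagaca
This window held 3 CpG dinucleotides, which began 231, 131 and 114 bases before the start, and 31.4% of the 32851 promoter windows of that length held as few. The median window held 7. The window's GC content was 57.3%, above the median of 52.7%, while its ratio of observed to expected CpG was 0.13 against a median of 0.38. The letters GGAA, the core bound by Ets factors, occurred 6 times counting both strands, and 15.7% of the windows held at least that many. The letters CANNTG, the E-box that E proteins bind, occurred 2 times, and 39.6% of the windows held at least that many; no GGAA overlapped an E-box or a CpG. These are matches of letters only. The sequence of the probe and its position in the Cd5 transcript are not used here.

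Values are ratios read as log2, on which 1 is a doubling; the log base was inferred from the values, and folds depend on it. The deposited Cd5 ratios of Erbb2 cells at 10 µM were 1.12, 1.11, 1.27 and 1.02 on arrays 1 to 4, whose treated channel was labelled Cy5. On arrays 5 to 8, with the treated channel labelled Cy3, they were -1.36, -1.55, -1.65 and -1.25. At 5 µM the deposited ratios were 1.21 and 1.13 on arrays 1 and 2 (Cy5) and -1.56 and -1.49 on arrays 3 and 4 (Cy3). Every Erbb2 array therefore lay more than 1 from 0, with the sign set by the dye label of the treated channel. In untransfected cells they were 0.25 and -0.18 on arrays 1 and 2, whose channel 1 was labelled Cy5, and -0.31 and -0.10 on arrays 3 and 4, labelled Cy3. These 4 arrays lay near 0 whatever the label.

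**Figure D1:**
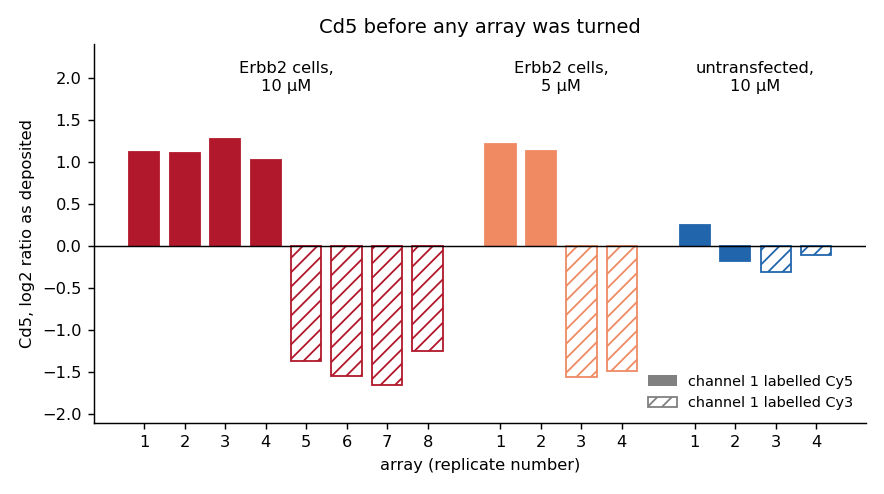
Deposited Cd5 log2 ratio (vertical axis) of each of the 16 arrays (horizontal axis, replicate number within a group); filled bars have channel 1, the treated cells, labelled Cy5 and hatched bars Cy3. The bars of Erbb2 cells run from 1.02 to 1.27 with Cy5 and from -1.65 to -1.25 with Cy3, and those of untransfected cells from -0.31 to 0.25.

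The labels do not say which channel is the numerator. The values were read as Cy5 over Cy3, and arrays with the treated channel in Cy3 had their sign turned to give treated over untreated. Every direction given here rests on these choices, which are assumed and not shown by the data. Over all probes, the deposited ratios of arrays with opposite dye labels had a mean Pearson's r of 0.0039 in Erbb2 cells at 10 µM and -0.0027 at 5 µM, and of -0.053 in untransfected cells. Arrays with the same label had 0.026, 0.052 and 0.11, so neither set of values settles the direction. Cd5 was chosen on turned values, so its change of sign between labels is no evidence for turning them. Were the ratios Cy3 over Cy5, every sign would turn. Were they treated over untreated already, Cd5 would have means near 0 (-0.16 and -0.17 in Erbb2 cells at 10 and 5 µM, -0.085 in untransfected cells), and its deposited ratios would differ between dye labels by 2.58, 2.70 and 0.24 in those groups. Under that reading the wide swing on Erbb2 arrays would be a dye difference and not a response to the drug. A dye difference and a drug response cannot be told apart by the labels alone. For the 4 untransfected arrays both channels carry the same dye label, and with the treated RNA in the other dye Cd5 there would be -0.12 in place of 0.12.

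After turning, Cd5 in Erbb2 cells at 10 µM had 1.02 as its lowest, 1.26 as its median and 1.65 as its highest value (mean 1.29 ± 0.22, SD, n = 8). At 5 µM the 4 arrays had 1.21, 1.13, 1.56 and 1.49 (mean 1.35 ± 0.21, SD, n = 4). In untransfected cells they had 0.25, -0.18, 0.31 and 0.10 (mean 0.12 ± 0.22, SD, n = 4). The range at 5 µM lay within that at 10 µM, and every Erbb2 array lay above the highest untransfected array. Of all features, 1.51% had every Erbb2 array above every untransfected array, 2.09% counting the 10 µM arrays alone and 5.31% the 5 µM arrays alone. The share above 0 on every array with a value was 1.31% at 10 µM, 8.3% at 5 µM, 0.539% over both doses and 12.2% in untransfected cells. Since Cd5 was picked for this pattern, nothing is read from these shares. In a bulk culture, more cells that carry a transcript and more of it per cell cannot be told apart.

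**Figure D2:**
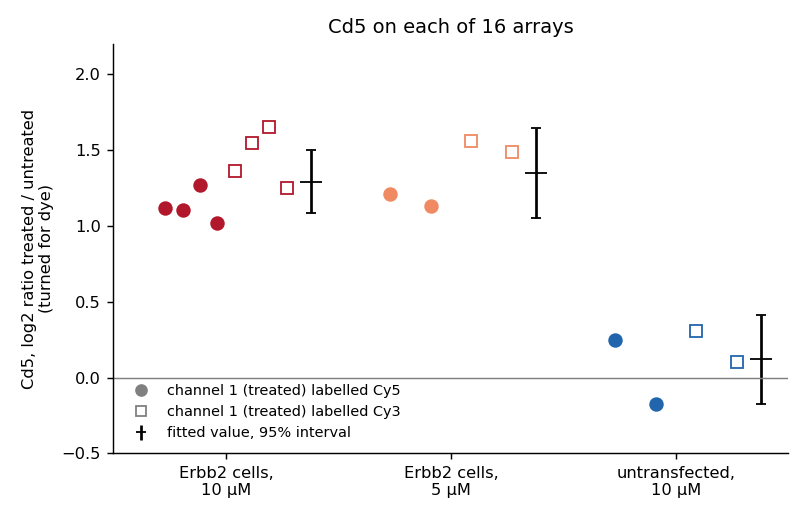
Cd5 log2 ratio of treated over untreated cells after turning (vertical axis) in the 3 groups; filled circles have the treated channel labelled Cy5, open squares Cy3, and the black bar is the fitted value with its 95% interval. The Erbb2 arrays sit between 1.02 and 1.65 and the untransfected arrays between -0.18 and 0.31.

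Fitted over all 16 arrays with a term for the dye, Cd5 stood at 1.29 ± 0.10 (SE) in Erbb2 cells at 10 µM, a fold of 2.45 with a 95% interval of 2.12 to 2.83. At 5 µM it stood at 1.35 ± 0.14, a fold of 2.55 (2.08 to 3.12). In untransfected cells it stood at 0.12 ± 0.14, a fold of 1.09 (0.89 to 1.33). In the order of the levels, 5 µM came first, 10 µM next and untransfected cells last. For the Erbb2 groups, 10 µM minus 5 µM was -0.06 ± 0.17 with an interval of -0.42 to 0.30, given as a description. As a fold of 10 µM over 5 µM, that interval runs from 0.748 to 1.235. Erbb2 minus untransfected cells at 10 µM was 1.17 ± 0.17, with an interval of 0.81 to 1.53. The 3 groups share 1 estimate of the spread, and untreated Erbb2 cells were the control of both doses.

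In each group the mean Cd5 ratio was larger with the treated channel in Cy3 than in Cy5. In Erbb2 cells at 10 µM the mean was 1.13 with the treated channel in Cy5 and 1.45 with it in Cy3, and array 8 (1.25, Cy3) lay within the range of the Cy5 arrays. At 5 µM the means were 1.17 and 1.52, with no overlap of 2 arrays against 2. In untransfected cells the means were 0.04 and 0.21, with overlap. The dye term, which is balanced within each group and was no part of the choice of Cd5, was -0.29 ± 0.14 (Cy5 minus Cy3, with an interval of -0.59 to 0.0021). It did not pass in limma (adjusted p = 0.623, unadjusted p = 0.0514), against 0 features of all 12420 that passed, 8.05% of them at an unadjusted p under 0.05.

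Cd5 was among the most repeatable readings on these arrays. It had a value on all 16, as did 59.7% of features, and its residual SD was 0.15 against a median of 0.74, with 0.813% of features lower. The spread entered the threshold by which Cd5 was picked, so it is a description. By fitted value it ranked 65 of 12420 at 10 µM, 155 at 5 µM and 5030 in the untransfected line, and 0.523%, 1.25% and 40.5% of features stood as high or higher. On single arrays between 87.1% and 94.2% of probes lay below Cd5 in Erbb2 cells, against 37.7% to 67.6% in untransfected cells. The absolute level of Cd5, in treated or untreated cells, is unknown because the deposited values are ratios.

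At 10 µM 0.403% of features were past the threshold as higher, an adjusted p under 0.05 in limma, and at 5 µM 0.177%. Among those at 10 µM, Cd5 ranked 7 by value, counting unnamed probes such as probe17337 (1.32 ± 0.11), which lay above it. The named gene next above Cd5 was Tmem86a, a lysoplasmalogenase (2.60 ± 0.38). Next below among named genes were the transcription factor gene Cebpd (1.18 ± 0.17), the homeobox gene Hoxb1 (1.18 ± 0.11) and Apaf1, the scaffold of the apoptosome (1.15 ± 0.10). At 5 µM Cd5 had the highest value of the named genes past the threshold as higher, followed by the pseudogene Znf41-ps (1.04 ± 0.16), Samd11 (0.99 ± 0.18) and Cp, which encodes the copper-carrying ferroxidase ceruloplasmin (0.95 ± 0.17). At the edge of the threshold, given as a description, at 10 µM Tex261 (0.555 ± 0.13) lay just inside and Pi4k2b (0.62 ± 0.15) just outside. At 5 µM Haus4 (0.69 ± 0.13) lay just inside. The next named gene outside on the higher side was Tmco5b (0.77 ± 0.16, adjusted p = 0.109 in limma).

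At both doses 17 features were past the threshold as higher (0.137%), of which 7 carry a gene symbol. This set is unstable: without 1 array, between 4 and 16 of the 17 remained, and 4 remained without any one of the 5 µM arrays. Cd5 was among those that remained in all 16 of these fits, and in each of those without a 5 µM array it was the 1 named gene left. These fits reuse the arrays on which Cd5 was picked, so nothing is read from its place in them. With each group fitted alone or with the replicate block, 0 and 1 features were past the threshold at both doses, and Cd5 was not among them. In untransfected cells the 17 features did 3 different things, and the values are given as a description since this contrast chose Cd5. Higher and lower swap in that line if its arrays are turned the other way. There 7 unnamed probes were also past the threshold as higher, from probe15448 (0.72 ± 0.13) to probe9740 (4.34 ± 0.17), against 0.596% of all features. Another 7 features, 5 of them named, were past it as lower. The remaining 3 (0.0242% of all features) did not pass there: Cd5, Cp (-0.31 ± 0.17) and probe19135 (-0.56 ± 0.14). Cp had -0.28, 0.16, -0.33 and -0.79 on those arrays, so both genes had arrays on either side of 0.

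**Figure D3:**
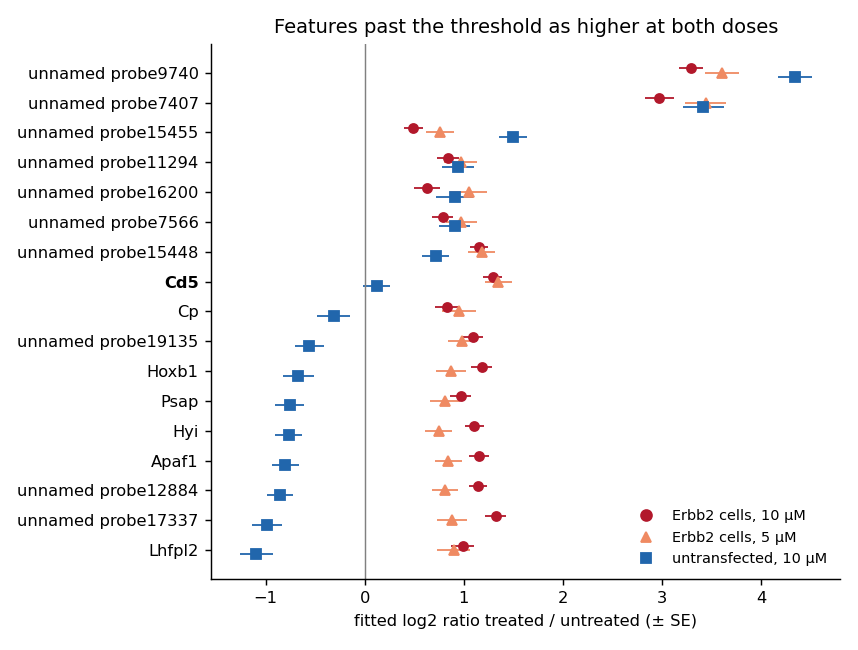
Fitted log2 ratio of treated over untreated cells (horizontal axis, bars are SE) for the 17 features past the threshold as higher at both doses in Erbb2 cells (vertical axis, ordered by their value in untransfected cells). Cd5 lies at 0.12 in untransfected cells, between 7 features from 0.72 to 4.34 and 9 features from -1.09 to -0.31. All untransfected values change sign if those arrays are turned the other way.

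The other 5 named genes of this set had the opposite sign in untransfected cells, which flips if those arrays are turned the other way. Apaf1 stood at 0.84 ± 0.14 at 5 µM and -0.80 ± 0.14 in untransfected cells. Hoxb1 had 0.87 ± 0.15 and -0.67 ± 0.15, Hyi, a hydroxypyruvate isomerase, 0.75 ± 0.13 and -0.77 ± 0.13, and Psap, which encodes prosaposin, 0.81 ± 0.15 and -0.76 ± 0.15. Lhfpl2, a tetraspan membrane protein gene, had 0.90 ± 0.17 and -1.09 ± 0.17. Each of them passed in untransfected cells, where 2.13% of features passed as lower. No promoter window was listed for Hyi. The promoters of the others ranged widely in CpG, from 46 in Apaf1 and 40 in Lhfpl2 to 10 in Hoxb1. The 2 listed windows of Psap held 23 and 3 and those of Cp 2 and 4, against 3 in Cd5.

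The 8 gene symbols whose turned ratios were most like those of Cd5, by Pearson's r over 16 arrays among 7365 candidates, were Cdh5 (0.963), Krt4 (0.960), Hyi (0.942), Atp6ap1 (0.934), Psap (0.933), Rpl11 (0.933), Cd63 (0.928) and Klf4 (0.928). Points of one line cluster, and the gap between Erbb2 and untransfected arrays sets most of each r. Within the 12 Erbb2 arrays, where Cd5 varied mostly with the dye label, r ran from 0.250 for Psap to 0.805 for Cd63. On the deposited ratios it ran from -0.420 for Krt4 to 0.867 for Hyi, and -0.023 for Cdh5. A shape like that of Cd5 did not mean a like level. Cdh5, the cadherin of endothelial junctions, had 0.06 ± 0.09 at 10 µM, -0.08 ± 0.13 at 5 µM and -1.08 ± 0.13 without the transfection, so it fell in untransfected cells, or rose if those arrays are turned the other way, where Cd5 was near 0. The keratin gene Krt4 (-0.90 ± 0.13), the proton pump accessory subunit gene Atp6ap1 (-0.96 ± 0.15) and the transcription factor gene Klf4 (-1.18 ± 0.15) fell there too and did not pass at either dose in Erbb2 cells. The ribosomal gene Rpl11 (-0.47 ± 0.13) and the tetraspanin gene Cd63 (-0.47 ± 0.13) passed in no group.

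Other lymphocyte genes were read from a list of markers. Of 38 lymphocyte markers, 23 had a probe and 15 had enough values to be compared. In limma 0 of the 15 passed in any group, against 1.26% of all features at 10 µM, 0.209% at 5 µM and 2.73% in the untransfected line, and 2, 0 and 1 had an unadjusted p under 0.05, as did 10.8%, 6.33% and 11.5% of all features. Counts of 0 among so few genes are near these shares, here and in the lists that follow. Their median was -0.06 at 10 µM, -0.18 at 5 µM and 0.18 in the untransfected line, against -0.00, -0.02 and 0.03 over all features. None of the 15 reached the value of Cd5 at either dose, where 0.523% and 1.25% of all features did, and the highest were Pdcd1 at 10 µM (0.41 ± 0.56) and Cd22 at 5 µM (0.29 ± 0.23). Cd3d, a chain of the T cell receptor complex, had -0.99 ± 0.40 over 6 arrays at 10 µM and 1.24 ± 0.48 in untransfected cells. Cd52, a small surface glycoprotein gene of lymphocytes, had -0.73 ± 0.30 at 10 µM. The lowest Cd52 value, -2.88 on array 3, stood apart from the other 7 arrays. The lowest residual SD of the 15 was 0.33, above that of Cd5. Markers near Cd5 in kind often lacked values: Cd6, its closest relative, had 11 of 16, Cd7 had 10, and Cd28, Cd3e and Il7r had 8 each, so they were not compared. Cd4 and Cd79a had no probe under those symbols. The presence of lymphocytes could not be checked by level, since ratios hold none.

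Myeloid and erythroid markers, 13 compared, had 0 past the threshold at either dose (1.26% and 0.209% of all features), with 1 and 0 at an unadjusted p under 0.05. Of them Tyrobp, an adaptor of myeloid and natural killer cells, passed as lower in untransfected cells (-0.68 ± 0.16), as 2.13% of all features did, or as higher if those arrays are turned the other way. Of 13 fibroblast markers compared, 1 was higher in Erbb2 cells at 10 µM (0.403% of all features), which was Sparc, a collagen-binding matrix protein gene (0.68 ± 0.11), and 3 had an unadjusted p under 0.05. At 5 µM 0 passed, against 0.209% of all features. There 4 had an unadjusted p under 0.05, against 6.33% of all features (10.8% at 10 µM). Of these, Vim had -0.61 ± 0.14, while Pdgfra (0.99 ± 0.43), Ddr2 (0.41 ± 0.19) and Sparc (0.36 ± 0.15) lay above 0. In untransfected cells fibronectin Fn1 (-1.63 ± 0.20), the collagen receptor gene Ddr2 (-0.97 ± 0.19), Col1a2 (-0.79 ± 0.19) and vimentin Vim (-0.55 ± 0.14) were lower, 4 of 13 against 2.13% of all features, or higher if those arrays are turned the other way. Their part in the Cd5 values was not tested.

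The list of 34 genes of Cd5 and antigen receptor signalling held kinases, phosphatases and adaptors, of which 21 were compared. In limma 0 passed in each group, where 1.26%, 0.209% and 2.73% of all features did, with 2, 0 and 1 at an unadjusted p under 0.05, and the medians were 0.03, 0.06 and 0.17. Rasa1, the GTPase-activating protein for Ras that binds the tail of Cd5, had the smallest p at 10 µM (0.63 ± 0.19 over 7 arrays, adjusted p = 0.214 in limma) and stood at 0.22 ± 0.26 at 5 µM. Bank1, a B cell scaffold, had -1.05 ± 0.37 at 10 µM and 0.12 ± 0.52 at 5 µM.

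Transcription factors of lymphocytes, 17 of 24 compared, had 0 past the threshold in each group (1.26%, 0.209% and 2.73% of all features), with 1 at an unadjusted p under 0.05 in each, and medians of -0.01, -0.06 and 0.02. Foxp3, the factor of regulatory T cells, was the 1 list gene above Cd5 at 10 µM, at 2.24 ± 0.65 over 6 arrays, but its arrays ran from 0.04 to 4.78. Ikzf1, a zinc finger factor of lymphoid development, had -1.90 ± 0.64 over 3 arrays at 5 µM, with 1 array at -4.41. Neither gene passed, and both varied between arrays by more than Cd5 did.

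Relatives of Cd5 in the scavenger receptor cysteine-rich family, 11 of 23 compared, had no member past the threshold as higher as turned here. In limma 1 gene was lower at 10 µM (0.862% of all features) and in untransfected cells (2.13%). At 5 µM 0 were lower, against 0.0322%. At an unadjusted p under 0.05 there were 2, 0 and 2 in the 3 groups. The lower gene was Dmbt1, a secreted mucosal member, at -0.59 ± 0.11 at 10 µM (8 arrays) and -0.27 ± 0.16 at 5 µM. In untransfected cells it had -0.81 ± 0.19 (3 arrays), or passed as higher if those arrays are turned the other way. The family's medians were 0.01, -0.03 and 0.02.

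The genes around Cd5 on chromosome 19 were taken from the reference. Of the 10 protein-coding genes on each side in GRCm38.p6, 11 were compared, and 0 passed in limma in any group, where 1.26%, 0.209% and 2.73% of all features did, with 1, 2 and 2 at an unadjusted p under 0.05. Their values ran from -0.35 to 0.23 at 10 µM and from -0.53 to 0.58 at 5 µM, all below Cd5, and from -0.58 to 0.76 in untransfected cells. Vps37c, the next gene on one side and a subunit of the endosomal ESCRT machinery, had -0.16 ± 0.24 at 10 µM, -0.13 ± 0.33 at 5 µM and 0.76 ± 0.33 in the untransfected line. Cd6, next on the other side, had too few values to compare. Tkfc, a triose kinase gene, had 0.58 ± 0.17 at 5 µM and 0.18 ± 0.12 at 10 µM, and Ddb1, a subunit of a DNA damage binding ubiquitin ligase, had -0.56 ± 0.19 in untransfected cells, and neither passed. The region's median was -0.10 at 10 µM, -0.13 at 5 µM and 0.17 in the untransfected line.

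**Figure D4:**
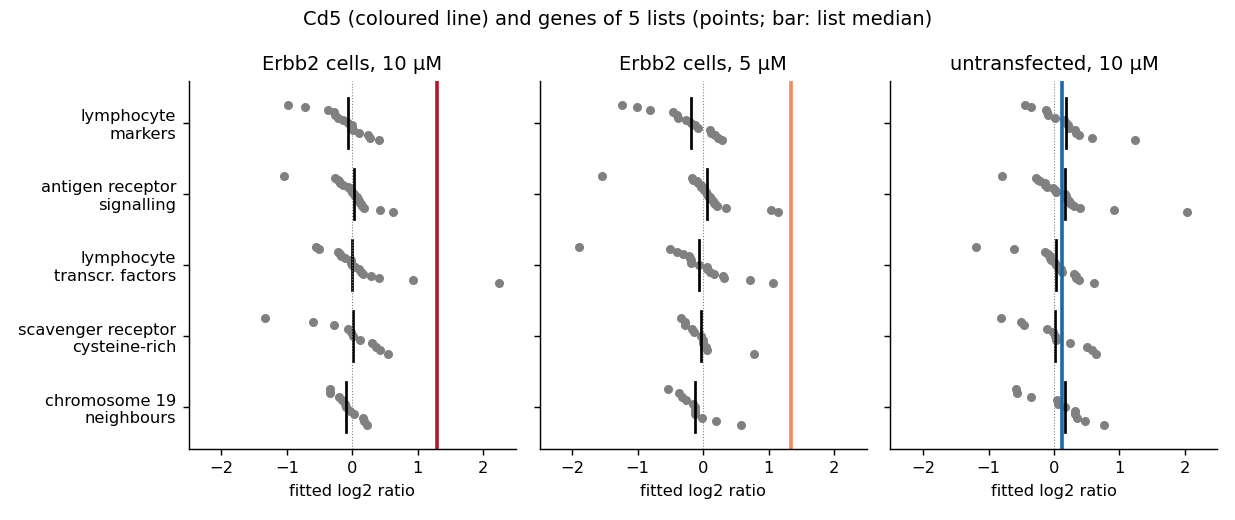
Fitted log2 ratio (horizontal axis) of the compared genes of 5 lists (points, vertical axis, with the list median as a black bar) in each group, with Cd5 as a coloured line. Cd5 lies to the right of all list genes except Foxp3 in Erbb2 cells at 10 µM, right of all of them at 5 µM, and within the lists in untransfected cells.

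The value of Cd5 in Erbb2 cells changed little with the processing as long as the arrays were turned for their dye. The fits reuse the values by which Cd5 was picked, so this is a description. Each group was balanced for dye, and Cd5 has 1 probe with a value on all 16 arrays. The filters, the dye term, probe averaging and leaving out arrays of other groups could therefore not move its value. Its place past the threshold was lost in some fits: at both doses with the replicate block, which keeps arrays 1 to 4 of each group, and at 5 µM with each group fitted alone. Few features passed in those fits: 1 at 10 µM and 2 at 5 µM with the block, and 0 at 5 µM fitted alone. The block also keeps only arrays labelled Cy5 for Erbb2 cells at 10 µM. Over 27 alternatives the value of Cd5 ran from 1.19 to 1.32 at 10 µM and from 1.33 to 1.53 at 5 µM. The values farthest from those reported, 1.19 and 1.53, came from scaling the arrays to 1 spread, which put 10 µM minus 5 µM at -0.34. Without any 1 array, Cd5 in untransfected cells stayed between 0.02 and 0.18.

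**Figure D5:**
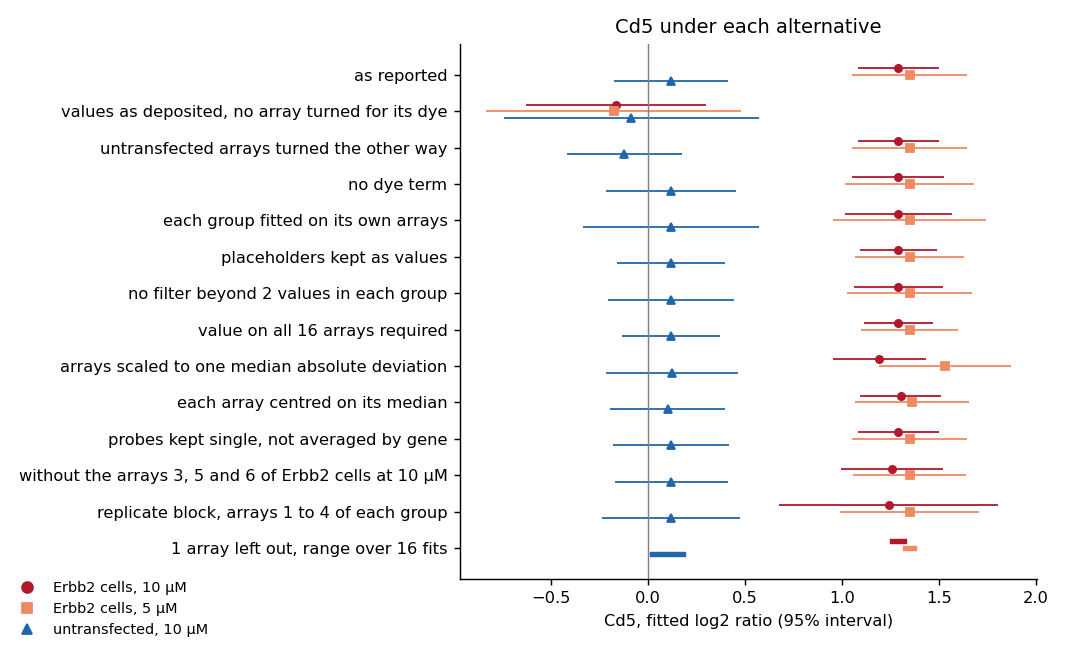
Fitted Cd5 log2 ratio with its 95% interval (horizontal axis) under each alternative (vertical axis) in the 3 groups, with the range over the 16 fits that left out 1 array at the bottom. The Erbb2 values stay between 1.19 and 1.53 except with no array turned, where they are -0.16 and -0.17.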

How the data were processed

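The deposited values are log2 ratios of the 2 channels of an array, with array medians from -0.030 to 0.053. The log base was inferred from the values, and the sources used here give no image analysis, background correction or normalization. Each array repeated 1 value between 15.4 and 16.6, while other ratios ended at 7.94; these 1755 cells were taken for placeholders and left out. An array gave 16153 to 18507 ratios, and precision is limited by how many arrays there are. Signal over background is unknown.

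Arrays with Cy3 in channel 1 had their sign turned. Probes needed a value on 3 of 4 or 6 of 8 arrays and on 1 array of each dye, and probes of 1 gene symbol were averaged. Symbols came from the platform annotation, and the Entrez IDs of 13994 of 14030 probes with 1 gene symbol matched RefSeq (GRCm38.p6). Limma 3.58.1 (R 4.3.3) fitted 3 groups and a dye term over all 16 arrays, with Benjamini-Hochberg adjustment over 12420 features and two-sided tests. The procedure was tested on simulated data.

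Cd5, the gene lists and the rule for named genes were chosen with earlier results of these data known. The named genes are Cd5, list members past the threshold or else the 2 with the smallest p, the 8 genes most like Cd5, genes past the threshold at both doses, and genes next to Cd5 in order. Tex261, Pi4k2b, Haus4, Tmco5b, Pdcd1, Cd22, Pdgfra and Vps37c were named after their values were seen. The replicate numbers shared by the groups were not taken as pairing the arrays. Alternatives tried were the turning, the dye term, the arrays fitted, the filter, the scaling, the centring, probe averaging and leaving out arrays.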

Additional observations from a re-analysis of the deposited data

Results flagged for a closer look

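Cd5 differed between the lines, with Erbb2 minus untransfected cells at 1.17 at 10 µM, and was chosen for that difference. As turned here, 8 of the features past the threshold at both doses had opposite signs in the 2 lines on every array. This was not tested beyond the fit. The share of all features with such signs is not given here, and the set was picked as higher in Erbb2 cells, so nothing is read from the count. If the untransfected arrays are turned the other way, these features have the same sign in both lines, and the differences that follow are smaller in size. Their differences were 1.96 for Apaf1, 1.85 for Hoxb1, 1.87 for Hyi, 2.08 for Lhfpl2, 1.73 for Psap, 2.00 for probe12884, 2.31 for probe17337 and 1.65 for probe19135.

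No Cd5 array stood apart from its group. Among the other named features, 5 of 117 groups of arrays had 1 array apart from the rest, where chance gives about 1 in 20. These were Cd52 (-2.88) and Col1a2 (1.08) on array 3 of Erbb2 cells at 10 µM, Hoxb1 (-0.96) and probe15455 (1.73) on array 4 of untransfected cells, and Lhfpl2 (-1.51) on array 3 of untransfected cells.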

How the results depend on the processing

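With no array turned for its dye, Cd5 was -0.16 at 10 µM, -0.17 at 5 µM and -0.078 for Erbb2 minus untransfected cells, and its dye term was 2.03. With the untransfected arrays turned the other way, Cd5 was -0.12 there and Erbb2 minus untransfected cells 1.41. With arrays scaled to 1 spread, 10 µM minus 5 µM was -0.34. The replicate block gave Cd5 1.24, 1.35 and 0.12 in the 3 groups, -0.11 for 10 µM minus 5 µM and 1.12 for Erbb2 minus untransfected cells, and put Cd5 short of the threshold for both doses and for that difference, as did fitting each group alone at 5 µM; same-numbered arrays of different groups had deviations correlated from -0.028 to 0.038 over 12 pairs, so the numbers were not taken as pairing. All other alternatives moved Cd5 by less than 1 SD between arrays, and several of them could not move it at all. Leaving out 1 array gave 1.26 to 1.32 at 10 µM, 1.33 to 1.37 at 5 µM, 0.02 to 0.18 in untransfected cells, -0.09 to -0.03 for 10 µM minus 5 µM, 1.11 to 1.27 for Erbb2 minus untransfected cells and -0.34 to -0.26 for the dye term.

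Counts of features past the threshold moved more, and the cause was not tested. At 10 µM the 157 became 2 with no array turned, 22 with each group fitted alone, 98 with a looser filter, 247 with a value required on all arrays, 57 without arrays 3, 5 and 6, 1 with the replicate block and 103 to 145 without 1 array (103 without array 1 or 4). At 5 µM the 26 became 0, 0, 4, 73, 45 with scaled arrays, 16 with single probes, 2 with the replicate block and 5 to 24 without 1 array (15 or fewer without any array other than arrays 3, 5 and 6 of Erbb2 cells at 10 µM). In untransfected cells the 339 became 4 with no array turned, 0 with each group fitted alone, 92 with the replicate block and 213 to 372 without 1 array (222 without array 1, 213 without array 2).

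Of 33 calls of other named genes, none changed sign in 850 fits beside the 2 turnings, and 231 of those fits put the gene short of the threshold. With the untransfected arrays turned the other way, values there were 0.80 for Apaf1, 0.96 for Atp6ap1, 1.08 for Cdh5, 0.79 for Col1a2, 0.97 for Ddr2, 0.81 for Dmbt1, 1.63 for Fn1, 0.67 for Hoxb1, 0.77 for Hyi, 1.18 for Klf4, 0.90 for Krt4, 1.09 for Lhfpl2, 0.76 for Psap, 0.68 for Tyrobp and 0.55 for Vim. With no array turned, signs changed for Dmbt1 (0.048), Hyi (-0.21), Psap (-0.062), Sparc (-0.22) and Tmem86a (-1.71) at 10 µM, for Hoxb1 (-0.18), Hyi (-0.18), Psap (-0.0585) and Znf41-ps (-0.22) at 5 µM, and for Fn1 (0.017), Hoxb1 (0.082), Lhfpl2 (0.14) and Vim (0.0125) in untransfected cells.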
